A study of Rattus norvegicus with 11 samples.

Results

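The genes described here are 47 genes of the interferon response and of antigen presentation by class I molecules. They were chosen by name, with earlier results of these data known. They comprise transcription factors, sensors of RNA, antiviral effectors, enzymes of ubiquitin-like and ADP-ribose modification, guanylate-binding proteins and the class I peptide-loading machinery. Of the 47 genes, 43 had a probe set that the platform annotation assigns to their symbol alone, and each of these had 1 such probe set among those tested. No probe set of a single symbol was found for Ddx58, Eif2ak2, Xaf1 and Parp14, and these 4 genes were not analysed here. All 43 lay above the background of 3.06 on the log2 scale in all 11 rats and passed the filter, among 16572 genes tested. The mean log2 value was below 5 in 23 of the 43, and the medians of the arrays lay between 5.26 and 5.35.

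The left dentate gyrus of adult male Sprague-Dawley rats was profiled on Affymetrix Rat Gene 1.1 ST arrays, with 1 array per rat. The TBI group (n = 6) received lateral fluid-percussion injury, a pulse of fluid pressure on the intact dura through an opening over the left parietal lobe. The controls (n = 5) had the same anesthesia, craniectomy and surgery without the impact. Tissue was taken 90 days later on the side of the injury, and no age beyond adult was given in the sources used here. The dentate gyrus with the hilus was cut out of slices of the hippocampus, so each sample was a mixture of granule cells, interneurons, glia and vessel cells. In such bulk tissue, fewer or more cells of a type and less or more RNA per cell cannot be told apart. All 8 granule cell markers examined were above background, but Tdo2 lay close to it, at 3.35 in TBI rats and 3.3 in controls. Prox1 is a transcription factor of dentate granule cells. Its log2 value was 9.31 ± 0.070 (SD, n = 6) in TBI rats and 9.27 ± 0.11 (SD, n = 5) in controls. C1ql2, a synaptic protein of granule cells, had the lowest p of these markers, with 9.36 ± 0.21 in TBI rats and 9.55 ± 0.083 in controls (difference -0.19, adjusted p = 0.74 from limma).

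Interferons are secreted proteins that alert cells to viral nucleic acids, and in the brain they act on neurons, glia and vessels. Type I interferons signal through Jak kinases to a complex that holds Stat2 and Irf9, and interferon gamma induces Irf1, a further activator. The induced genes encode proteins that sense foreign RNA, block steps of viral replication, tag proteins with the ubiquitin-like Isg15, and load peptides on class I molecules for display to CD8+ T cells.

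Promoters of many interferon-induced genes carry short DNA elements through which interferon acts, and those of the 11 members with an unadjusted p under 0.05 between the groups are shown. A promoter was available in the RefSeq table of build GRCr8 for 36 of the 47 genes. The window held 250 bases before and 50 bases after the annotated start. The motif GAAA, then any 2 bases, then GAAA again, as read on either strand, is the core of the interferon-stimulated response element. It was found in 21 of the 36 windows (58.3%) and in 4.12% of the windows of all 27457 genes in the table. TTCNNNGAA, the palindromic core of the gamma-activated site bound by Stat dimers, was found in 10 of the 36 (27.8%) and in 9.39% of all genes. The 2 motifs could overlap each other. The 150 bases before the start of each of the 11 genes follow, 5′ to 3′ on the strand of the gene. Capitals mark the first motif, except in Irf1, where they mark TTCNNNGAA.
Slfn9 (chr10:68420063-68420212, minus strand): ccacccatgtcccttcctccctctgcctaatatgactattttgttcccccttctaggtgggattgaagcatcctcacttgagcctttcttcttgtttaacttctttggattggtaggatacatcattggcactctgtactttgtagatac
Gbp5 (chr2:233910849-233910998, plus strand): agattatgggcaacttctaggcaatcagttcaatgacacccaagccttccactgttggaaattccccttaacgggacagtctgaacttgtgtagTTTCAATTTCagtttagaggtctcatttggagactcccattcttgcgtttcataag
Gbp2 (chr2:234005577-234005726, plus strand): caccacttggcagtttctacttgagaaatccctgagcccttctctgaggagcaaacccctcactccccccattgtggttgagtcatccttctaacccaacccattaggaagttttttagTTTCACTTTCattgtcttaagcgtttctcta
Ifitm2 (chr1:205482349-205482498, minus strand): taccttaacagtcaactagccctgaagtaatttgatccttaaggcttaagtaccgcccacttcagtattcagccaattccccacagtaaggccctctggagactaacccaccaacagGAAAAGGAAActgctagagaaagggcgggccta
Ifitm3 (chr1:205541759-205541908, minus strand): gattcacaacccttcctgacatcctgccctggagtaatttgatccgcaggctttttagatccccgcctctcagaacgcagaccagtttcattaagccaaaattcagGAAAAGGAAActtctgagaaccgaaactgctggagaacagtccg
Ifi44 (chr2:243303841-243303990, minus strand): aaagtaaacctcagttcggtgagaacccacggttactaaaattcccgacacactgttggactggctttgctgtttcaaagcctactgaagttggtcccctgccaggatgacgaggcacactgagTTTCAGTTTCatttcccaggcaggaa
Tapbp (chr20:4967878-4968027, minus strand): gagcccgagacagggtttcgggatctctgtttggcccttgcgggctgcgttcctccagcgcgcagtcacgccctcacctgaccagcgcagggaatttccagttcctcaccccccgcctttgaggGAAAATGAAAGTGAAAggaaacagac
Irf1 (chr10:38417785-38417934, plus strand): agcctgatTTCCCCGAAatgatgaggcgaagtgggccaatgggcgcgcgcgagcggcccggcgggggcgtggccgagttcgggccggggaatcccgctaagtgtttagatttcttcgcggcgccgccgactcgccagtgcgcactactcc
Stat3 (chr10:86363360-86363509, minus strand): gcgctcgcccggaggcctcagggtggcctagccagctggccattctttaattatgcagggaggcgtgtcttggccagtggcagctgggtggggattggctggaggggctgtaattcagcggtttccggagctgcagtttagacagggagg
Ifi35 (chr10:86881120-86881269, plus strand): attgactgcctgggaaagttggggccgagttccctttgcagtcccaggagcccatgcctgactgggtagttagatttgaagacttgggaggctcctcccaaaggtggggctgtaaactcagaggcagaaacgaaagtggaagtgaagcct
Parp9 (chr11:78319012-78319161, minus strand): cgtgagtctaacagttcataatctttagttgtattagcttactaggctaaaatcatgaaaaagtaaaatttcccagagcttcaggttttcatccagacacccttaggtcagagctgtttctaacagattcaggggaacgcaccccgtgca

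In Gbp5, Gbp2, Ifitm2, Ifitm3, Ifi44 and Tapbp the first motif stood within 150 bases of the start, and Tapbp held 2 overlapping copies. Ifitm2 and Ifitm3, which are close paralogs, carried the same 10 bases. Neither motif was found in the windows of Slfn9, Stat3, Ifi35 and Parp9, and Ifitm3 also held TTCNNNGAA, which is not marked. A match describes the letters only.

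At 90 days post-TBI, most of the interferon genes had slightly higher mean signals than in controls, and 1 of the 43, Slfn9, passed the test over all probe sets. The difference of the means was positive in 39 genes and negative in 4, where 57.2% of all 17905 probe sets tested had a positive difference. The median difference of the 43 genes was 0.11 on the log2 scale, and over all probe sets it was 0.011. At an adjusted p under 0.05 in limma, 1 member was higher and none was lower. Over all probe sets 25 were higher (0.14%) and 2 were lower (0.0112%). At an unadjusted p under 0.05 in limma, 11 of the 43 were higher (25.6%) and none was lower, where 4.96% of all probe sets were higher and 1.87% were lower. The list was chosen with earlier results of these data known, so these shares describe it and test nothing. The same holds for the counts by role below, which are of small groups of genes in the same rats. Of 45 further interferon-stimulated genes outside the list, 4 were higher (8.89%) and 1 was lower at that p. Their median difference was 0.028. With each array centred on its median no member passed over all probe sets. The 11 members with an unadjusted p under 0.05 were then the same, while over all probe sets 510 were higher and 723 lower, against 888 and 334 without centring. With a second quantile normalization no member passed either, and they were again the same 11, with 668 probe sets higher and 486 lower in all. Every TBI rat lay above every control in 2 members, Slfn9 and Gbp5 (0.832% of all probe sets), and every TBI rat lay below every control in none (0.207% of all probe sets).

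**Figure D1:**
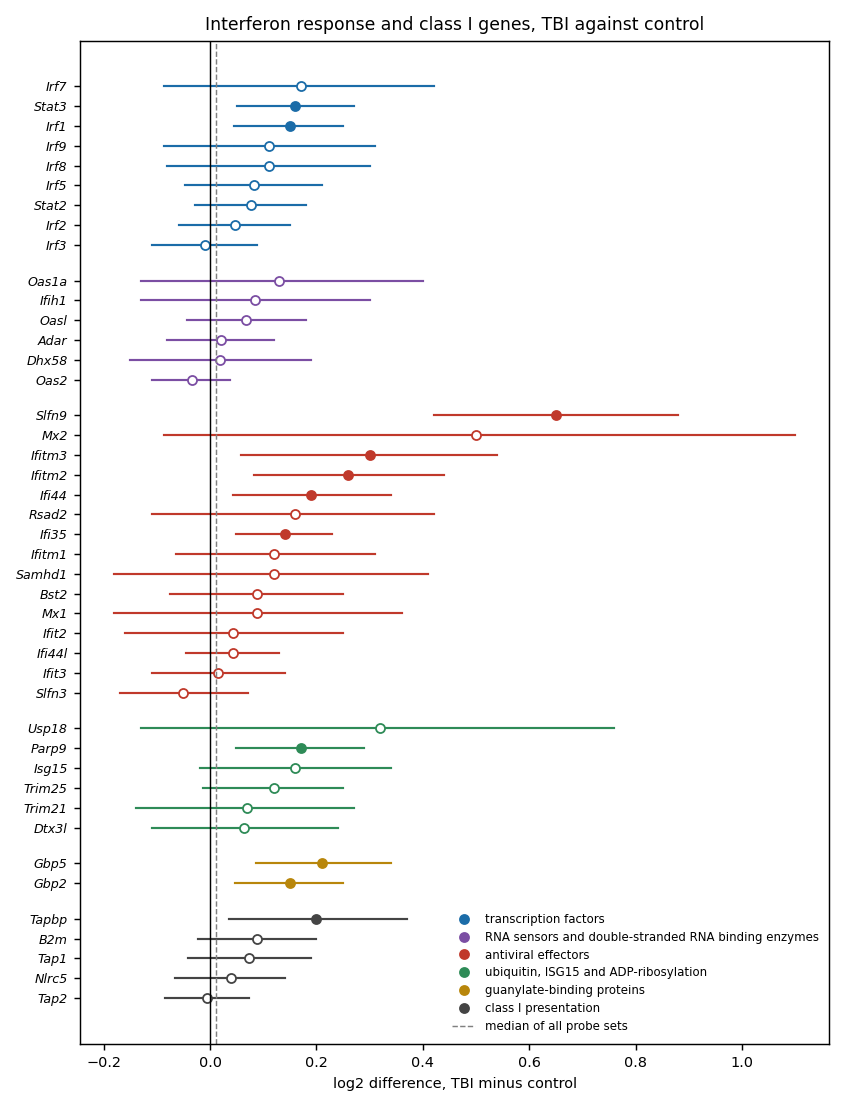
Log2 difference of the mean signal, TBI minus control, of 43 genes in blocks by role, with the 95% confidence interval from limma. Filled points have an unadjusted p under 0.05, and the dashed line is the median of all probe sets (0.011). The 11 filled points all lie to the right of 0, with Slfn9 farthest at 0.65.

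The rats were not alike within their groups. The first component of the within-group variation held 63.9% of the variance over all probe sets. The scores of control 2 (0.447), TBI 1 (0.487) and TBI 3 (0.425) were far from those of the others on it, which lay between -0.345 and 0.06. Without these 3 rats 21 members were higher and none was lower at an unadjusted p under 0.05, and these 21 included all of the 11. In that comparison of 4 TBI rats with 4 controls, 9.76% of all probe sets were higher and 10.4% were lower. Ifitm3 (log2 difference 0.51, adjusted p = 0.0034 from limma) and Irf9 (0.26, adjusted p = 0.030) then passed along with Slfn9 (0.71, adjusted p = 0.0145). In Ifitm3 and Irf9, control 2 was the highest control, and TBI 1 and TBI 3 were the lowest TBI rats. Leaving these rats out could only widen the differences of Ifitm3 and Irf9, so their calls add no support.

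Among the antiviral effectors, the largest group with 15 measured members, 1 was higher at an adjusted p under 0.05. An unadjusted p under 0.05 was reached by 5, all higher, where 4.96% of all probe sets were higher. Slfn9, a member of the Schlafen family, whose proteins restrict translation and cleave tRNA, had log2 values of 3.97, 4.39, 4.22, 4.36 and 4.32 in control rats 1 to 5. In the TBI rats its lowest, median and highest values were 4.6, 4.92 and 5.13. The groups were separated by a clear gap, and the lowest value of all was that of control rat 1. Slfn9 rose by 0.65 (standard error 0.11, adjusted p = 0.044 from limma), a 1.57-fold increase. The call was lost in 10 of the 11 fits with 1 rat left out, in which the adjusted p lay between 0.0629 and 0.149, and was kept without TBI rat 3 (adjusted p = 0.0202). The difference itself stayed between 0.58 and 0.71 in those fits. An exact two-sided permutation test on the 462 splits of the rats gave p = 0.0043. That p is unadjusted, is near the lowest possible wherever the groups do not overlap, and adds no separate support. The call was also lost with centred arrays (adjusted p = 0.105), a second quantile normalization (0.107), the one-way analysis of variance of the methods (0.159) and the replicate number as a block (0.469). Schlafen genes are close paralogs, and the array annotation does not show how much signal they share. Slfn3, another Schlafen gene, had log2 values of 3.68, 3.77, 3.72, 3.68 and 3.7 in controls and 3.51, 3.65 and 3.83 in TBI rats. The controls lay within the range of the TBI rats, and the difference was -0.05 (adjusted p = 0.91 from limma).

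Ifitm2 and Ifitm3 are membrane proteins that block the fusion of enveloped viruses. Ifitm2 had log2 values of 4.96, 4.96, 5.01, 4.63 and 4.92 in controls 1 to 5, and 4.98, 5.12 and 5.36 as the lowest, median and highest value in TBI rats. All TBI rats but TBI rat 1 lay above every control, and the difference was 0.26 (standard error 0.083, adjusted p = 0.45 from limma). Ifitm3 had 6.15, 6.56, 6.02, 6.12 and 6.07 in controls and 6.24, 6.53 and 6.66 in TBI rats. Control rat 2 was level with the upper TBI rats, and the other 4 controls lay below all of them. Its difference was 0.3 (standard error 0.11, adjusted p = 0.59 from limma), and without control 2, TBI 1 and TBI 3 it was 0.51. Ifitm1, of the same family, had a difference of 0.12 with a 95% interval of -0.064 to 0.31.

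Ifi35 and Ifi44 are interferon-induced proteins, of which Ifi44 is a cytosolic protein with antiviral activity in human cells. Ifi35 had log2 values of 4.22, 4.25, 4.3, 4.24 and 4.38 in controls and 4.37, 4.41 and 4.48 in TBI rats, a difference of 0.14 (adjusted p = 0.37 from limma). Control rat 5 reached the range of the TBI rats. Ifi44 had 5.19, 5.46, 5.33, 5.19 and 5.23 in controls and 5.36, 5.46 and 5.62 in TBI rats, a difference of 0.19 (adjusted p = 0.55 from limma). Here control rat 2 lay at the median of the TBI rats. The other effectors had intervals that included 0. Mx2, a dynamin-like GTPase that traps viral nucleoproteins, had the next largest difference after Slfn9 at 0.5, with an interval from -0.086 to 1.1. Rsad2, or viperin, which makes a chain-terminating nucleotide, had 0.16 (-0.11 to 0.42). Bst2, the tether that holds budding virions at the cell surface, had 0.089 (-0.075 to 0.25), and Samhd1, which hydrolyses deoxynucleotides, 0.12 (-0.18 to 0.41). Ifit2 and Ifit3, of a family that binds viral RNA, had 0.043 and 0.015, Mx1, the other Mx GTPase, had 0.088, and Ifi44l, a paralog of Ifi44, had 0.043.

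**Figure D2:**
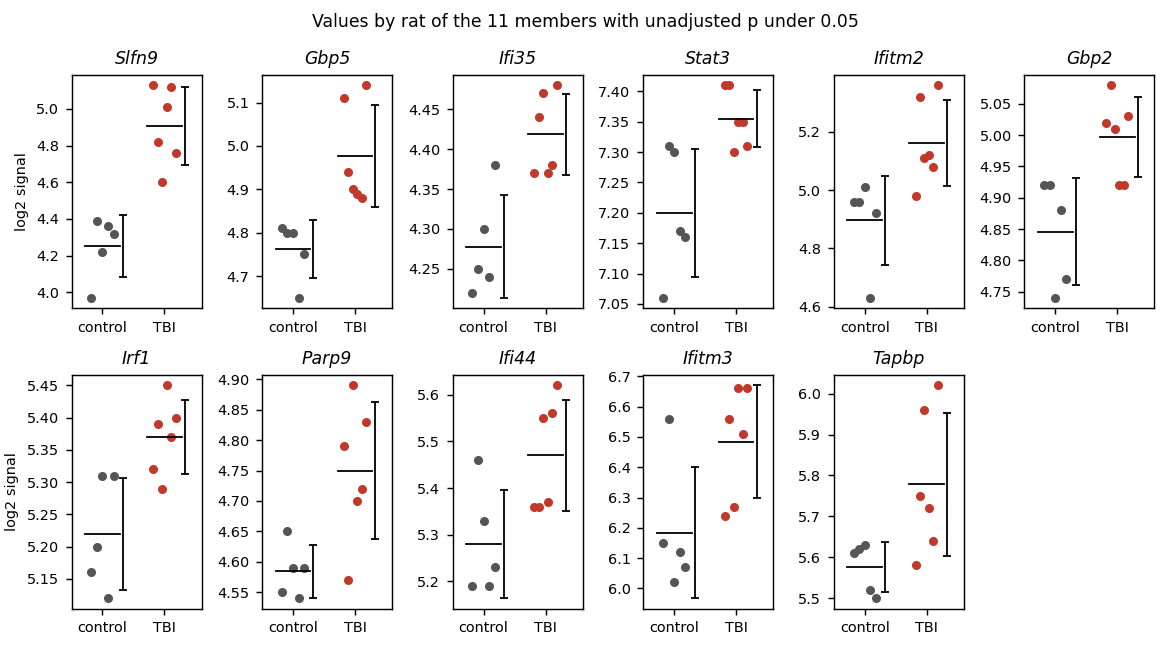
Log2 signal of the 11 members with an unadjusted p under 0.05, each point 1 rat (5 controls in grey, 6 TBI rats in red), with the mean as a line and the SD as a bar beside it. The vertical scale differs between genes and does not start at 0. The groups do not overlap in Slfn9 and Gbp5, and 1 control reaches the TBI range in Ifitm3.

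Both guanylate-binding proteins measured, GTPases that attack the membranes of intracellular pathogens and that interferon gamma induces strongly, were higher at an unadjusted p under 0.05. Gbp5 had log2 values of 4.81, 4.8, 4.8, 4.65 and 4.75 in controls and 4.88, 4.92 and 5.14 in TBI rats. Its groups did not overlap, but the highest control and the lowest TBI rat were close to each other. The difference was 0.21 (standard error 0.058, adjusted p = 0.30 from limma), or 1.16-fold. Gbp2 had 4.92, 4.92, 4.74, 4.88 and 4.77 in controls and 4.92, 5.01 and 5.08 in TBI rats. The highest controls touched the lowest TBI rats, and the difference was 0.15 (standard error 0.047, adjusted p = 0.45 from limma). Both genes lie on chromosome 2 in the sequences above.

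Of the 9 transcription factors, 8 had a positive difference, where 57.2% of all probe sets did. The unadjusted p was under 0.05 in Stat3 and Irf1, both higher after TBI. Stat3, which carries the signal of interleukin-6 type cytokines and is active in reactive astrocytes, had log2 values of 7.06, 7.31, 7.3, 7.17 and 7.16 in controls. Its lowest, median and highest values in TBI rats were 7.3, 7.35 and 7.41. Controls 2 and 3 reached the lower edge of the TBI rats, and the difference was 0.16 (standard error 0.049, adjusted p = 0.43 from limma). Irf1, an activator induced by interferon gamma, had 5.16, 5.2, 5.31, 5.12 and 5.31 in controls and 5.29, 5.38 and 5.45 in TBI rats. In 5 of the 6 TBI rats it lay above every control, and the difference was 0.15 (standard error 0.046, adjusted p = 0.45 from limma). Irf7, which amplifies type I interferon production, had a difference of 0.17 with an interval of -0.086 to 0.42. Irf8, a factor of microglia and other myeloid cells, and Irf9 both had 0.11, with intervals of -0.081 to 0.3 and -0.086 to 0.31. In both, TBI rat 1 had the lowest value of all 11 rats. Stat2 had 0.076, Irf5 0.082 and Irf2, a repressor of the pathway, 0.047. Irf3, the factor activated directly by the nucleic acid sensors, had log2 values of 7.41, 7.34, 7.33, 7.34 and 7.34 in controls and 7.23, 7.35 and 7.49 in TBI rats. The TBI rats lay on both sides of the controls, with a difference of -0.0086 (interval -0.11 to 0.089).

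None of the 6 sensors and double-stranded RNA binding enzymes was higher or lower at an unadjusted p under 0.05. Ifih1 (Mda5), which detects long double-stranded RNA, had a difference of 0.085 (interval -0.13 to 0.3), and Dhx58 (Lgp2), its regulator, had 0.018 (-0.15 to 0.19). Oas1a, an oligoadenylate synthetase that activates RNase L, had log2 values of 4.47, 4.94, 4.62, 4.74 and 4.47 in controls and 4.49, 4.71 and 5.1 in TBI rats. TBI rats 5 and 6 lay above every control and the other 4 lay among them, with a difference of 0.13 (-0.13 to 0.4). Oasl, a relative without synthetase activity in human, had 0.067 (-0.044 to 0.18). Oas2 had log2 values of 3.78, 3.9, 3.79, 3.8 and 3.79 in controls and 3.75, 3.79 and 3.8 in TBI rats, and control rat 2 alone stood above the rest. Its difference was -0.034 (-0.11 to 0.038). Adar, which edits adenosine in double-stranded RNA, had log2 values of 8.45, 8.45, 8.42, 8.35 and 8.48 in controls and 8.33, 8.46 and 8.57 in TBI rats, with the controls inside the range of the TBI rats and a difference of 0.021 (-0.081 to 0.12).

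The 6 members of the ubiquitin-like and ADP-ribose system all had positive differences, where 57.2% of all probe sets did. Parp9 was higher at an unadjusted p under 0.05. Parp9, which acts in a complex with the ubiquitin ligase Dtx3l, had log2 values of 4.55, 4.65, 4.59, 4.54 and 4.59 in controls and 4.57, 4.76 and 4.89 in TBI rats. TBI rat 2 lay within the controls and the other 5 TBI rats lay above them, with a difference of 0.17 (standard error 0.055, adjusted p = 0.48 from limma). Dtx3l had 3.7, 4.07, 3.86, 3.84 and 3.81 in controls and 3.76, 3.88 and 4.19 in TBI rats, and the difference was 0.064 (interval -0.11 to 0.24). Its groups overlapped over most of their range. Isg15 itself had 4.33, 4.56, 4.56, 4.56 and 4.46 in controls and 4.47, 4.63 and 4.97 in TBI rats, with a difference of 0.16 (-0.018 to 0.34). TBI rats 3, 5 and 6 lay above every control. Usp18, which removes Isg15 from proteins and restrains the type I receptor, had 0.32 (-0.13 to 0.76). Trim25, a ligase of the RNA sensor pathway, had 6.39, 6.27, 6.31, 6.36 and 6.21 in controls and 6.26, 6.42 and 6.58 in TBI rats, of which TBI rats 4, 5 and 6 lay above every control. Its difference was 0.12 (-0.013 to 0.25), and that of Trim21, a cytosolic antibody receptor, was 0.069 (-0.14 to 0.27).

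In the class I machinery, 4 of 5 members had positive differences, where 57.2% of all probe sets did. Tapbp was higher at an unadjusted p under 0.05. Tapbp, or tapasin, which holds class I molecules at the peptide transporter, had log2 values of 5.61, 5.62, 5.63, 5.52 and 5.5 in controls and 5.58, 5.74 and 6.02 in TBI rats. The controls lay close together and TBI rats 3 and 6 lay well above the rest, with a difference of 0.2 (standard error 0.077, adjusted p = 0.61 from limma). B2m, the light chain of class I molecules, had 10.38, 10.52, 10.36, 10.38 and 10.35 in controls and 10.38, 10.46 and 10.61 in TBI rats. Control rat 2 lay above all but 2 TBI rats, and the difference was 0.088 (interval -0.022 to 0.2). Tap1, a subunit of the peptide transporter, had 0.073 (-0.042 to 0.19). Its partner Tap2 had log2 values of 5.18, 5.04, 5.18, 5.13 and 5.12 in controls and 5.08, 5.11 and 5.17 in TBI rats, all within the range of the controls, and a difference of -0.0056 (-0.084 to 0.073). Nlrc5, the transactivator of class I genes, had 0.039 (-0.065 to 0.14). Of 26 measured genes of class I heavy chains, the immunoproteasome and peptide loading outside the list, none passed at an adjusted p under 0.05, and 4 were higher and none was lower at an unadjusted p under 0.05. These were Tapbpl, a relative of tapasin (difference 0.27, adjusted p = 0.53 from limma), and the heavy chain genes RT1-CE2, RT1-CE15 and RT1-S3 (0.19, 0.13 and 0.27). The rat heavy chain genes are near-identical copies, so their probe sets may share signal, and the values of single RT1 genes are uncertain.

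The 6 members with the largest spread within groups were Mx2, Usp18, Samhd1, Rsad2, Mx1 and Oas1a, with within-group SDs between 0.22 and 0.51, where the median over all probe sets was 0.1. Mx2 had log2 values of 4.33, 5.59, 4.6, 5.09 and 5.36 in controls 1 to 5 and 4.88, 5.42 and 6.36 as the lowest, median and highest value in TBI rats. It spanned 2.03 log2 units over the 11 rats, with control rat 1 lowest and TBI rat 6 highest. Usp18 ran from 3.19 in control rat 1 to 4.67 in TBI rat 6, and control rat 2, at 3.99, was above 4 of the 6 TBI rats. Rsad2 was 4.38 in TBI rat 6 and between 3.69 and 3.77 in the other TBI rats, while control rat 2 had 3.99. TBI rat 6 was the highest of all rats in 4 of these 6 genes, and control rat 1 the lowest in 4. Over the 43 members TBI rat 6 was the highest of all rats in 21, where it was highest in 12.7% of all probe sets. Among the TBI rats, TBI rat 1 was the lowest in 21 members and in 34.5% of all probe sets. Among the controls, control rat 2 was the highest in 25 members and in 28.6% of all probe sets.

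**Figure D3:**
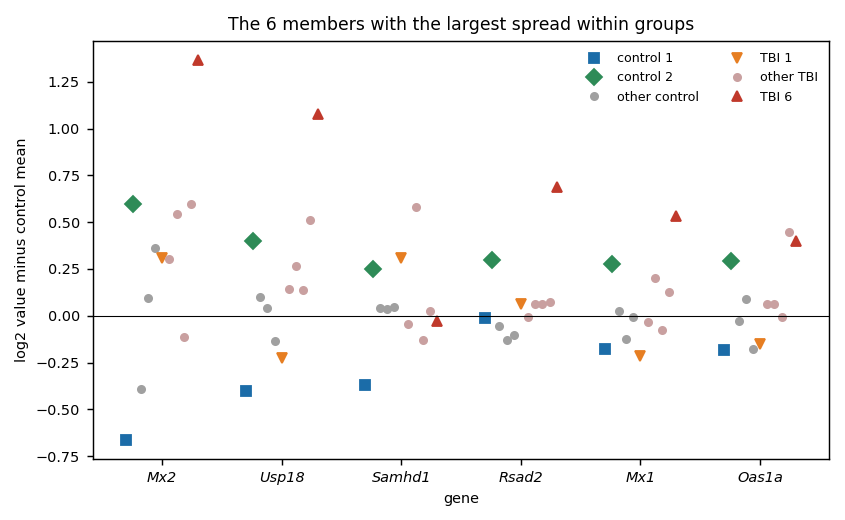
Log2 value minus the control mean in each rat for the 6 members with the largest within-group SD, with TBI rats 1 and 6 and control rats 1 and 2 marked. TBI rat 6 is the highest in Mx2, Usp18, Rsad2 and Mx1, and control rat 2 is the highest control in all 6 genes.

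The median deviation of the 43 members from the control means was 0.2 in TBI rat 6, 0.12 in TBI rat 5, 0.1 in TBI rat 3, 0.089 in TBI rat 4, 0.069 in TBI rat 2 and -0.02 in TBI rat 1. In controls 1 to 5 it was -0.031, 0.072, 0.0081, -0.015 and -0.012. Control rat 2 thus lay above TBI rats 1 and 2 on this measure. Without TBI rat 6 the same 11 members had an unadjusted p under 0.05, and the median difference of the 43 was 0.081. Without TBI rat 1 there were 16 such members, including all of the 11, and the median was 0.14. The share of all probe sets that were higher at that p was 8.49% without TBI rat 1. It was 4.26% without TBI rat 6 and 4.96% with all rats.

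**Figure D4:**
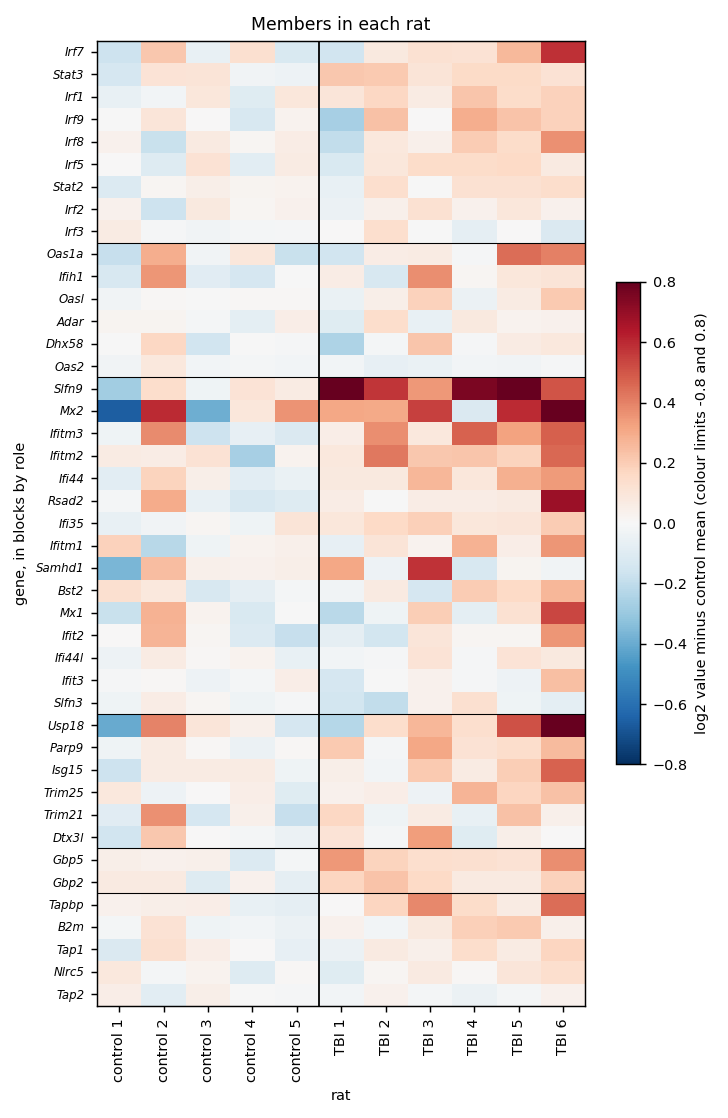
Log2 value minus the control mean of each of the 43 members (rows, in blocks by role) in each rat (columns, 5 controls and then 6 TBI rats). Colours stop at -0.8 and 0.8, and the highest values of Mx2, Usp18 and Slfn9 lie beyond that limit. Slfn9 is red in all 6 TBI rats, while Irf7, Mx2, Mx1 and Usp18 are darkest in TBI rat 6.

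Genes of the same pathway outside the list were examined next. Of 16 measured ligands, receptors and components of Jak-Stat signalling outside the list, none passed over all probe sets, 2 were higher and none was lower at an unadjusted p under 0.05, and the median difference was 0.012. These were Il10rb, a subunit shared by the receptors of interleukin-10 and type III interferons (difference 0.29, adjusted p = 0.059 from limma), and Ptpn6, a phosphatase that restrains Jak kinases (0.22, adjusted p = 0.18). The genes of interferon beta and gamma had log2 values of 4.2 ± 0.086 and 4.55 ± 0.043 (SD, n = 6) in TBI rats and 4.18 ± 0.061 and 4.56 ± 0.061 (SD, n = 5) in controls, differences of 0.016 for Ifnb1 and -0.0081 for Ifng. The receptor subunits Ifnar1, Ifngr1 and Ifngr2 had differences of 0.064, 0.14 and 0.0071. Of 13 genes of nucleic acid sensing, 2 were higher at an unadjusted p under 0.05, Unc93b1, which escorts Toll-like receptors to endosomes (0.18), and the kinase Ikbke (0.098). Tlr7, an endosomal receptor of single-stranded RNA, came closest among the others (0.22, adjusted p = 0.73 from limma). None of these 13 passed over all probe sets. Of 45 further interferon-stimulated genes, none passed over all probe sets, 4 were higher and 1 was lower at an unadjusted p under 0.05, and the median difference was 0.028. The higher ones were Irgm, an immunity-related GTPase (0.3, adjusted p = 0.29 from limma), Ube2l6, the conjugating enzyme of Isg15 (0.2), Epsti1 (0.16) and the chemokine Cxcl10 (0.27). The lower one was Ly6e, a surface protein, with a difference of -0.12. Cxcl10 had log2 values of 5.24 and 5.27 in TBI rats 3 and 6 and between 4.57 and 4.84 in the other 9 rats.

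Markers of cells that express many of these genes were compared in the same rats. Of 12 markers of microglia and macrophages, 3 were higher and 1 was lower at an unadjusted p under 0.05, with a median difference of 0.17. Cd68, a lysosomal protein of phagocytes, had a difference of 0.58 (adjusted p = 0.14 from limma), Tyrobp, a microglial adaptor, 0.24, Ptprc, the common leukocyte antigen, 0.17 and Aif1 (Iba1) -0.15. The summed linear signal of the 12 ran from 989 to 1180 in TBI rats and from 768 to 1250 in controls, with the highest sum in control rat 2. Of 11 markers of T and NK cells tested, none was higher or lower at an unadjusted p under 0.05, and their summed signal was 213 to 238 in TBI rats and 199 to 223 in controls. The lowest p-values belonged to Cd8b (difference 0.12), Cd4, which microglia of the rat also express (0.22), and Nkg7 (0.12), and 9 of the 11 differences were positive. Among the defining subunits of the T cell receptor complex, Cd3e and Cd3d were above background in all rats, with differences of -0.031 and 0.026. Cd3g, the other such subunit measured, lay close to the background of 3.06, with log2 values between 3.06 and 3.09 in TBI rats and between 3.06 and 3.23 in controls. Of 6 endothelial markers, 2 were higher at an unadjusted p under 0.05, Cdh5 and Cldn5 (0.15 and 0.16), and the sums ran from 481 to 505 in TBI rats and from 454 to 513 in controls. Of 7 astrocyte markers, 4 had a positive difference and 3 a negative one. Gfap was higher at an adjusted p under 0.05 and Aqp4 at an unadjusted one. The negative differences were those of Aldoc (-0.093), Slc1a3 (-0.092) and Slc1a2 (-0.0048). The sums ran from 7030 to 7760 in TBI rats and from 6250 to 7920 in controls. The part of these cells in the differences of the interferon genes was not tested.

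The promoter motif was set beside the differences after TBI. Of the 11 members with an unadjusted p under 0.05, all of which had a promoter in the table, 6 held the first motif (54.5%), and of the other 22 measured members with a promoter 12 did (54.5%). The median difference was 0.11 in the 18 members with the motif and 0.11 in the 15 without it.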

How the data were processed

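The deposited values are log2 signals that the authors made with the Robust Multi-array Average algorithm (RMA) of the oligo package, for which the submitters' processing notes name version 1.30.0 and the methods an earlier one. RMA subtracts background, gives all arrays one distribution and summarises the probes of each probe set. Of 29214 probe sets, the platform annotation gave 18644 exactly 1 symbol, 962 more than 1, and 9608 none. As in the methods, values below the background of 3.06 (the lowest value in the 1241 rows read of a supplementary table of these arrays) were raised to it, and a probe set had to exceed it in all but at most 5 arrays. The remaining 17905 were tested by lmFit and eBayes of limma 3.58.1 (R 4.3.3), without covariates, and p-values were adjusted by Benjamini-Hochberg over all of these, with a threshold of 0.05. Intervals are 95% intervals from limma. For single genes an exact two-sided permutation test over all 462 splits was also run. The limma step was tested on simulated data with independent noise for each probe set and rat. Such data lack the shared within-group component of these arrays, so that test says nothing about the calls made here. The number of arrays limits the precision, and the rats are separate animals per the labels.

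The genes, role groups and further lists were chosen with earlier results of these data known. Every member was eligible to be named, with values per rat for those with an unadjusted p under 0.05 and, for each role, the member with the highest mean and the member with the lowest difference. Of the further lists, at most 3 genes with the lowest p were to be named. In some marker lists fewer were, and all others named from these lists were chosen after their values were seen. Lists also held markers of B and plasma cells (median difference 0.041), monocytes and neutrophils (0.052), choroid plexus (0.0083) and erythrocytes (0.017). Of 4, 6, 6 and 3 such genes tested, 1 (a neutrophil gene, Csf3r, 0.14) had an unadjusted p under 0.05.

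The test was repeated without floor and filter, over probe sets whose mean log2 value reached 5, and after centring or renewed quantile normalization of the arrays. Other repeats used limma with an intensity trend and robust prior, the methods' one-way analysis of variance, or array weights. Further ones took the replicate number as a block, allowed more than 1 symbol, averaged the probe sets of each gene, left out each rat in turn or 3 rats together, or added the within-group component as a covariate. Plots were drawn with matplotlib 3.10.9 in Python 3.11.15.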

Additional observations from a re-analysis of the deposited data

Results flagged for a closer look

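In 12 of 86 sets of values (43 members in 2 groups) the highest or lowest rat stood far from the rest of its group. The sets share the same 11 rats, so the rate of about 1 in 20 for independent sets is no reference here. The share flagged over all probe sets was not computed. Of these 12, 7 were control rat 2, which was one of the rats that stood apart over all probe sets. Control rat 2 was the highest control in B2m (10.52, next 10.38), Ifitm3 (6.56, next 6.15), Ifih1 (4.73, next 4.38), Oas2 (3.9, next 3.8) and Rsad2 (3.99, next 3.68), and the lowest in Irf2 (6.91, next 7.09) and Irf8 (4.91, next 5.11). Control rat 1 was the highest control in Irf3 (7.41, next 7.34) and the lowest in Stat2 (6.67, next 6.8). Control rat 4 was the lowest control in Ifitm2 (4.63, next 4.92). Among the TBI rats, TBI rat 6 was the highest in Rsad2 (4.38, next 3.77) and TBI rat 1 the lowest in Irf5 (6.03, next 6.22).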

How the results depend on the processing

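Apart from Slfn9, the members with an unadjusted p under 0.05 had log2 differences of 0.14 to 0.3, and none reached an adjusted one. Some members with differences in that range or above it did not reach an unadjusted p under 0.05. Examples are Isg15 (0.16), Usp18 (0.32) and Mx2 (0.5). In 23 members the mean log2 value was below 5, closer to the background of 3.06. All 43 members were above background in all rats. No member was lower at an unadjusted p under 0.05 under any of the alternatives run.

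The 27 calls over all probe sets became 7 with centred arrays, 7 with a second quantile normalization, 8 with the methods' one-way analysis of variance, 310 with array weights, 271 without control 2, TBI 1 and TBI 3 together, and 946 with the within-group component as a covariate, which is itself computed from these probe sets. With 1 rat left out they ranged from 5 (without control 5) to 34 (without TBI 3). No member was called with centred arrays, a second quantile normalization, the methods' one-way analysis of variance or a mean log2 value of at least 5, a setting under which Slfn9 was not tested. With array weights 2 were called (Slfn9 and Ifitm3, the latter at a difference of 0.43 with an adjusted p of 0.0099), without the 3 rats 3 were (Slfn9, Ifitm3 and Irf9), and with the component 3 were (Slfn9, Gbp5 and Ifitm2). With 1 rat left out, 0 to 1 were called. The 11 members with an unadjusted p under 0.05 became 6 of the 20 tested at a mean of at least 5. They became 21 with array weights, 21 without the 3 rats, and 10 to 16 with 1 rat left out. Ifitm3 was lost without control 3 and Tapbp without control 5. The share of all probe sets that were higher at that p also moved. It was 4.96% in the main fit, 5.05% at a mean of at least 5 and 10.4% with array weights. It was 9.76% without the 3 rats and 3.64% to 8.49% with 1 rat left out. The median difference of the members lay between 0.081 and 0.14 in those fits. The difference of Slfn9 was 0.62 with centred arrays (adjusted p = 0.105), 0.63 with quantile normalization (0.107) and 0.65 with the methods' test (0.159), and 0.58 to 0.71 with 1 rat left out. The cause of these changes was not tested. The share of promoters with a motif was 58.3% for the first motif and 27.8% for TTCNNNGAA.

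The labels number the rats of both groups from 1, and nothing in them says that a number marks a shared litter or day. The correlations of the deviations of same-numbered rats from their group means were -0.65, -0.5, -0.41, -0.26 and 0.11. They run over all probe sets, where 1 component held 63.9% of the within-group variance, so they cannot exclude a shared litter or day. The numbers were taken not to pair rats. In the fit with a replicate block, 3 probe sets in all and 0 members were called, and Slfn9 had a difference of 0.68 (adjusted p = 0.469). In that fit 8 members had an unadjusted p under 0.05, all higher, where 2.88% of all probe sets were higher at that p. TBI rat 6 has no same-numbered control and adds nothing to that fit.

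Signs turned only in members with differences between -0.0086 and 0.043 and in Mx1, whose difference was 0.088. Centring gave Adar -0.0081, Ifit3 -0.013 and Dhx58 -0.011, and quantile normalization Ifit3 -0.0046 and Dhx58 -0.0054. Array weights gave Irf3 0.015. The block gave Irf3 0.013, Mx1 -0.0012, Ifit2 -0.019 and Ifit3 -0.03, which were also the values without TBI 6. With 1 rat left out, Irf3 ranged from -0.037 to 0.013, Tap2 from -0.027 to 0.0076, Dhx58 from -0.023 to 0.07, Ifit2 from -0.019 to 0.11, Adar from -0.003 to 0.044, Mx1 from -0.0012 to 0.16 and Ifit3 from -0.03 to 0.045.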
